A study of Mus musculus with 2 samples.

Results

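The striatum sends its output through 2 classes of medium spiny neurons, and 10 genes that mark them were compared between Cx30 KO and WT mice on day 1 after MPTP. The genes were taken as 2 lists of 5. *Drd1*, *Tac1*, *Pdyn*, *Chrm4* and *Isl1* stand for the direct pathway, and *Drd2*, *Penk*, *Adora2a*, *Gpr6* and *Gpr52* for the indirect pathway. Probes were chosen by their gene name alone, which gave 17 probes on the array. All 10 genes were well above background on both arrays, out of 22008 genes that were so on at least 1 array. The WT array holds striatal RNA of 2 male mice labelled C57BL/6J, and the Cx30 KO array that of 2 male mice labelled Cx30-LacZ, which lack functional Cx30, a gap junction protein of astrocytes. According to the methods, both genotypes came from interbred heterozygous parents, were 8 weeks old, and received 4 injections of 20 mg/kg of MPTP at 2 h intervals. The RNA of the mice of a genotype was pooled and labelled with Cy3, so each genotype has 1 array and there are no replicates. No test between the genotypes was possible, and arrays of saline-treated mice were not analysed here, so no value below measures a response to MPTP.

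Direct pathway neurons project to the substantia nigra pars reticulata and carry the D1 dopamine receptor, which raises cAMP. Indirect pathway neurons project to the globus pallidus and carry the D2 receptor, which lowers cAMP. The former make substance P and dynorphin and the latter make enkephalin, and in general the loss of striatal dopamine is known for raising enkephalin mRNA and lowering substance P mRNA. MPTP damages the dopaminergic terminals that reach both classes, while the spiny neurons themselves are not its direct target.

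The labels were checked with *Gjb6*, the gene of Cx30, whose brighter probe gave processed signals of 1788 ± 179 (WT) and 111 ± 11.6 (Cx30 KO). The log2 ratio of −3.94 goes the way the labels state. The processed signal is the spot brightness in arbitrary units after the scanner software had removed the background, and log2 ratios are Cx30 KO over WT, taken after each array had been scaled to its own 75th percentile. The error given below is the scanner software's error of both spots, which includes a fixed 10% term and does not cover variation between mice. The SD of the log2 ratio of a single spot was 0.07, from 298 probes printed 10 times on each array. Between different probes of 1 gene the log2 ratios varied with an SD of 0.26 (7147 genes).

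The probes are 60-mers placed on the mm9 build, and the file gives the base of the transcript at which each one starts, but not whether it lies in coding sequence or a UTR. The first 30 bases of the probes that the within-gene comparisons rest on, and of the probe of *Gpr52*, which had the lowest log2 ratio, are shown 5′ to 3′ in lower case. They show that the probes of a gene read different stretches of sequence. By the transcript that the file names for each probe, the dim *Tac1* probes were designed for another transcript than the bright ones. The same holds for the dimmer *Penk* probe, and the start bases of the *Gpr6* probes are likewise counted along different transcript records.
Drd1, base 3436, chr13:54146585-54146644, minus strand: gtgttacgtactttgaatgttttctcagct
Drd1, base 2744, chr13:54147277-54147336, minus strand: ctcaagaagaaatccaactttagatttctg
Tac1, base 953, chr6:7512893-7512952, plus strand: gtttcaatgtaattctctggtcttcagtca
Tac1, base 367, chr6:7507722-7509136, plus strand: catggccagatctctcacaaaaggcataaa
Tac1, base 1609, chr6:7515469-7515528, plus strand: aaacacccagaagctaacataaagaagtgg
Tac1, base 118, chr6:7513978-7514036, plus strand: tatggggaaagagagcctaagggactgttg
Isl1, base 2170, chr13:117088774-117088833, minus strand: cccccaaagatgtgtatagttattggttaa
Isl1, base 233, chr13:117099604-117099663, minus strand: atttcactgtggacattactccctcttaca
Penk, base 1300, chr4:4060735-4060794, minus strand: ggtctcttatggctatgttgttatcaatag
Penk, base 99, chr4:4065808-4065867, minus strand: ttacacttgccttctttctttctcttgcag
Gpr6, base 1393, chr10:40790116-40790175, minus strand: agggactgaacgtgaacgcaacgaactgac
Gpr6, base 1006, chr10:40790325-40790384, minus strand: agatccagcgtgccttgtggctcctgttct
Gpr52, base 997, chr1:162506828-162506887, minus strand: aaacaatgtgcacatcttgtgtgtgtgcga

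The *Tac1* probe that starts at base 367 covers 1415 bases of the genome with its 60 bases, so its target is not contiguous in the genome. The strand is read from the order of the coordinates in the file. The G and C content of the 17 probes ran from 35% to 55%.

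**Figure D1:**
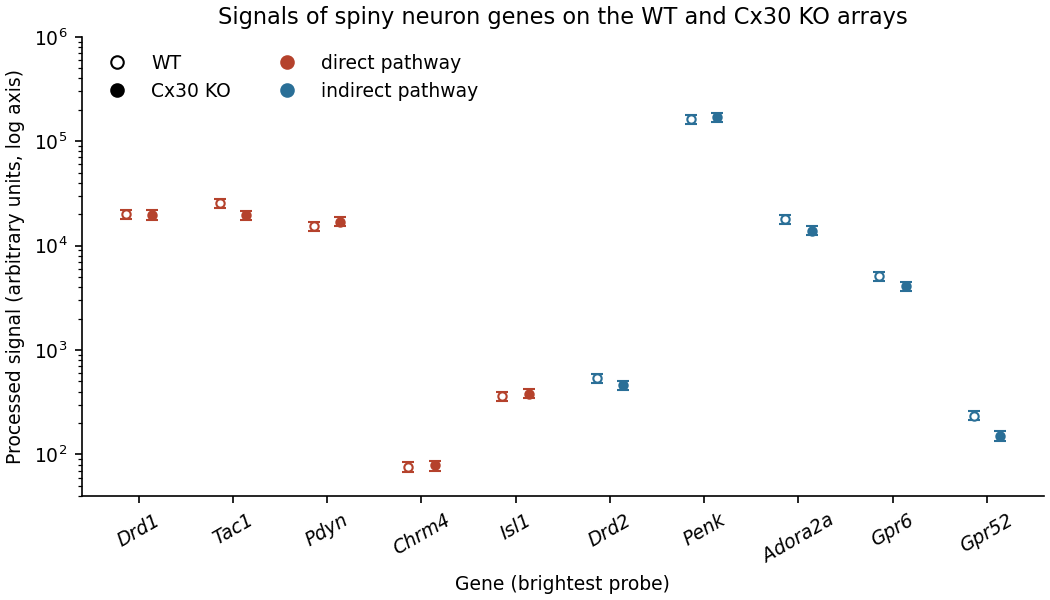
Processed signal in arbitrary units (log axis) of the brightest probe of each gene, with WT as open and Cx30 KO as filled points and the scanner software's error as bars. Signals of different genes are not comparable, and within each gene the points lie close together, with the widest gap at *Gpr52* (236 in WT and 150 in Cx30 KO).

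Among the receptors of the direct pathway, *Drd1*, which encodes the D1 dopamine receptor, gave a processed signal of 19972 ± 1997 in WT, against 19702 ± 1970 in Cx30 KO. The scaled log2 ratio was 0.05 ± 0.20. Its dimmer probe had 4797 in WT and 4462 in Cx30 KO, giving a log2 ratio of −0.03. Both probes were thus within their error of 0, and no direction is given for *Drd1*. *Chrm4*, which encodes the M4 muscarinic receptor that opposes D1 signalling in these neurons, was the dimmest of the 10 genes, with 76.6 ± 8.67 in WT and 78.4 ± 8.61 in Cx30 KO. Its log2 ratio of 0.11 ± 0.23 is within its error of 0. At this brightness the ratios of all probes spread widely (local SD 0.44). *Chrm4* would have needed a log2 ratio of −0.85 or 0.93 to meet the study's criteria, so a smaller difference could not have met them.

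At their brightest probes, the peptide genes of the direct pathway had log2 ratios of opposite sign. *Tac1*, the precursor of substance P, had 25565 ± 2556 in WT and 19662 ± 1966 in Cx30 KO at its brightest probe, giving a log2 ratio of −0.31 ± 0.20. The probe at base 367 had 6252 ± 625 and 4679 ± 468, a log2 ratio of −0.35 ± 0.20. The bright probes of *Tac1* therefore differed from each other by 0.04, less than the single-spot SD, and both lay below 0 by more than their scanner error.
The dim probes of the other *Tac1* transcript were well above background in Cx30 KO only. At base 1609 the signal was 19.97 ± 4.70 in WT and 29.6 ± 4.78 in Cx30 KO, a ratio of 1.56 after scaling. The bound of this probe is that measured ratio itself (log2 ratio 0.64 ± 0.41). At base 118 the signal was 10.3 ± 4.11 in WT and 19.1 ± 3.97 in Cx30 KO, hence at least 1.01-fold higher after scaling. The signals of these probes stand near the lowest that counted as detected, 19.8 on the WT array and 17.4 on the Cx30 KO array.
*Pdyn*, the precursor of the dynorphins, had 15323 ± 1532 in WT and 16925 ± 1692 in Cx30 KO on its single probe, giving a log2 ratio of 0.21 ± 0.20. This was the highest log2 ratio of the 10 genes, just past its scanner error but below the SD of 0.26 between probes of 1 gene. Of all detected genes, 24.8% were as high or higher.

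*Isl1* encodes a LIM homeodomain factor that specifies direct pathway neurons and is also known from cholinergic interneurons. It had 359 ± 36.2 in WT and 382 ± 38.4 in Cx30 KO, giving a log2 ratio of 0.16 ± 0.21. Its probe at base 233 had 296 and 304, a log2 ratio of 0.11. Of 6 cholinergic interneuron genes, 5 were detected, with *Gbx2* at background on both arrays. They had a median log2 ratio of −0.14 (−0.19 to −0.05 over the alternatives) with 3 below and 2 above 0, and 0 of them met the criteria. Their summed processed signal was 3721 in WT and 3419 in Cx30 KO. The brightest of them were *Slc18a3*, the vesicular acetylcholine transporter (−0.14), and *Chat*, the enzyme that makes acetylcholine (0.28, with −0.22 and −0.07 at its other probes). The part of these interneurons in the *Isl1* value was not tested.

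Among the receptors of the indirect pathway, *Drd2*, which encodes the D2 dopamine receptor, had 537 ± 53.9 in WT and 459 ± 46.1 in Cx30 KO. Its log2 ratio of −0.16 ± 0.21 is within its error of 0. *Adora2a*, which encodes the adenosine A2a receptor that raises cAMP in these neurons, had 17938 ± 1794 in WT and 13909 ± 1391 in Cx30 KO, giving a log2 ratio of −0.30 ± 0.20. On its single probe *Adora2a* was thus lower in Cx30 KO by more than its scanner error, while no direction is given for *Drd2*. The Z-score of *Adora2a* was −1.45, and 15.9% of all detected genes were as low or lower.

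*Penk*, the precursor of the enkephalins, had 163257 ± 16326 in WT and 169777 ± 16978 in Cx30 KO. Its log2 ratio was 0.13 ± 0.20, and the probe of its other transcript, with 5473 in WT and 5681 in Cx30 KO, also had 0.13. The probes differed by 0.0027, and *Penk* was the single indirect pathway gene above 0. The probe was not saturated on either array (0 saturated probes in all).

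*Gpr6* and *Gpr52* encode orphan receptors that raise cAMP and are enriched in indirect pathway neurons. *Gpr6* had 5077 ± 508 in WT and 4058 ± 406 in Cx30 KO, giving a log2 ratio of −0.25 ± 0.20. Its dimmer probe had 2081 ± 208 and 1917 ± 192, a log2 ratio of −0.05 ± 0.20. The gap of 0.20 was the widest between probes of a gene that were well above background on both arrays, so the size of the *Gpr6* difference depends on the probe.
*Gpr52* had 236 ± 24.1 in WT and 150 ± 15.7 in Cx30 KO on its single probe. Its log2 ratio of −0.58 ± 0.21 was the lowest of the 10 genes and the only one more than 2 scanner errors from 0. Of all detected genes, 6.59% were as low or lower.

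**Figure D2:**
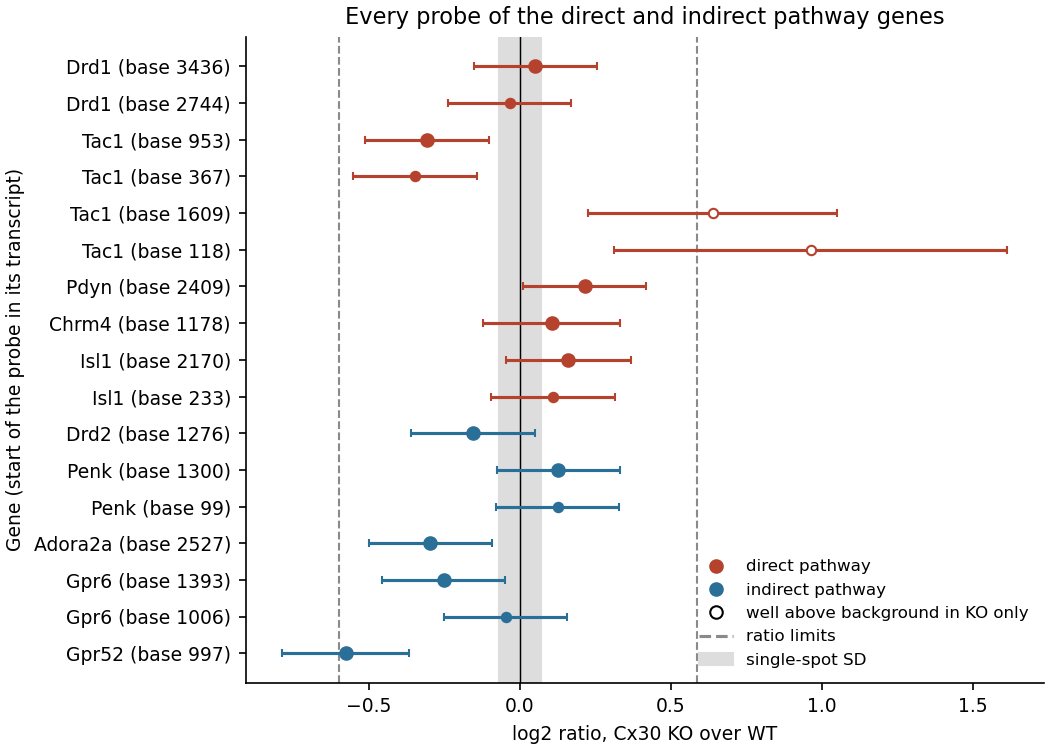
Log2 ratio of Cx30 KO over WT for all 17 probes, each named by gene and start base, with the scanner error as bars, the brightest probe of a gene as the larger point the single-spot SD of 0.07 on either side of 0 as a grey band and the ratio limits of 1.5 and 0.66 as dashed lines. Direct pathway genes are red and indirect ones blue. Filled probes lie between −0.58 and 0.21 and inside the limits, and the open points are the *Tac1* probes that were well above background in Cx30 KO only.

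Read together, the 10 genes had a median log2 ratio of −0.05, with 5 below and 5 above 0. These counts go by sign alone, and 5 of the 10 genes were within their scanner error of 0. The direct pathway genes ran from −0.31 to 0.21, with 1 below and 4 above 0 and a median of 0.11. The indirect pathway genes ran from −0.58 to 0.13, with 4 below and 1 above 0 and a median of −0.25. All 22008 detected genes had a median of 0.03, and 45.4% of them were below 0. The gap between the medians of the pathways was 0.36. The summed processed signals, taken before scaling, went the other way. For the direct list they were 61296 in WT and 56749 in Cx30 KO, with *Tac1* as the brightest gene. For the indirect list they were 187044 in WT and 188353 in Cx30 KO. Of these, *Penk* alone gave 163257 and 169777, so the indirect sum mainly follows *Penk*, which was within its scanner error of 0. The ranges overlapped, since 3 of 5 direct pathway genes lay within the range of the indirect ones and 4 of 5 indirect ones within that of the direct ones, with *Tac1* and *Penk* each on the other pathway's side. The genes of a list are not replicates of a genotype, so the gap is given without a test. With the mean of all detected probes in place of the brightest, the indirect pathway median moved to −0.16. The mean for *Tac1* was then 0.24 with its dim probes at their measured ratios and 0.0013 with them at their bounds, so no direction is read from it.

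By the study's criteria a gene is higher if its Z-score reaches 2.0 and its ratio 1.5, and lower if these are no more than −2.0 and 0.66. The Z-score, for which the methods name no reference set, was taken here over the 1000 probes nearest in mean signal. Of the 10 genes, 0 met the criteria for lower and 0 for higher expression in Cx30 KO, where 3.39% of all detected genes (746) met the former and 2.37% (522) the latter. Taking the Z-score over all probes gave 455 lower and 502 higher genes, and again 0 of the 10 genes were among either. By the ratio alone, 6.21% of all detected genes were at or below 0.66 and 7.22% at or above 1.5, and 0 of the 10 genes were in either group. In a set of 10 genes, such shares leave few or no calls, so the count of 0 does not set them apart from other genes. Their Z-scores ran from −1.76 for *Gpr52* to 1.03 for *Pdyn*. *Gpr52* lay nearest to the limits, with a ratio of 0.671. Quantile normalisation (0.657), scaling by the array median (0.649) and the authors' values (0.657) took its ratio under 0.66, but its Z-score stayed at −1.73 to −1.76 there. The 10th and 90th percentiles of all detected genes were −0.42 and 0.47, and 9 of the 10 genes lay between them.

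**Figure D3:**
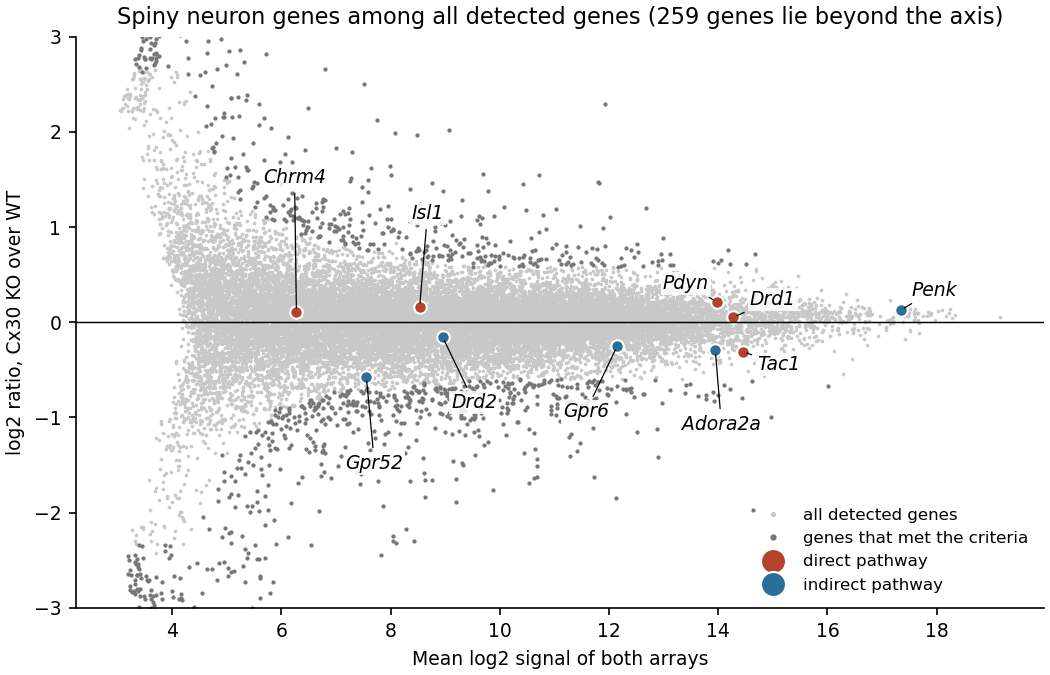
Log2 ratio against the mean log2 signal of both arrays for all detected genes (light grey), those that met the criteria (dark grey), direct pathway genes (red) and indirect pathway genes (blue). The ratio spreads more at low signal, the 10 genes lie within the light grey cloud, and 259 genes beyond a log2 ratio of 3 in either direction are not drawn.

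Other genes known for either class were set beside them. For the direct pathway these were *Ebf1*, *Eya1*, *Slc35d3*, *Sfxn1* and *Lingo2*, with a median log2 ratio of −0.09, 4 below and 1 above 0. For the indirect pathway they were *Sp9*, *Six3*, *Syndig1l*, *Grik3* and *Plxdc1*, with a median of −0.12, 3 below and 2 above 0. Neither list had a gene that met the criteria (0 of 5 in each). The median of the direct list was above that of the indirect list by 0.030, against 0.36 for the 10 genes above. Averaging the probes of each gene put the direct list (−0.24) below the indirect list (−0.12), so no order of these lists is given. The brightest were *Sfxn1*, a mitochondrial serine carrier (−0.06), and *Eya1*, a transcriptional coactivator (0.07 with −0.72 and −0.19 at its other probes), and then *Syndig1l* (−0.23) and the transcription factor *Six3* (−0.12).

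Genes that both classes share had a median log2 ratio of −0.08 (−0.12 to −0.04 over the alternatives), with 21 of 30 below 0 and 9 above. Of these, 2 met the criteria, both lower in Cx30 KO. Over all detected genes, 3.39% met the criteria for lower and 2.37% those for higher expression. These shares stand beside the counts of this list and of the lists that follow. *Rxrg*, a retinoid X receptor, had 21801 ± 2180 in WT and 12251 ± 1225 in Cx30 KO, giving a log2 ratio of −0.76. *Cnr1*, the cannabinoid CB1 receptor, had 11669 ± 1167 and 6805 ± 681, a log2 ratio of −0.71, with −0.41 at its other probe. The brightest genes were *Ppp1r1b*, which encodes the cAMP-regulated phosphatase inhibitor DARPP-32 (0.23, and 0.24 at its other probe), and *Pcp4*, a calmodulin-binding protein (−0.39). The summed signal of the list was 995469 in WT and 893395 in Cx30 KO. Like all summed signals here, it was taken before scaling, and the 75th percentile was 401.2 in WT and 381.8 in Cx30 KO. In RNA of whole striatum, the number of spiny neurons and the RNA per neuron cannot be told apart.

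For 29 genes of dopamine and cAMP signalling, 10 of which are also on the shared list, the median was −0.06 (−0.11 to −0.06 over the alternatives), with 18 below and 11 above 0. *Rgs4*, a regulator that ends G protein signalling, was the single gene that met the criteria. It had 24837 ± 2484 in WT and 14570 ± 1457 in Cx30 KO, giving a log2 ratio of −0.70. Since 3.39% of all detected genes met the criteria for lower expression, this count does not set the list apart. *Ppp3ca*, the calcineurin catalytic subunit, had −0.11. On the dopamine side, *Th*, the enzyme that limits dopamine synthesis, had 1469 in WT and 1390 in Cx30 KO, giving a log2 ratio of −0.01, and *Ddc*, the next enzyme, had 0.19 with 0.83 at its other probe. *Slc6a3*, the dopamine transporter, was at background on both arrays, and 0 of 4 detected genes of dopaminergic neurons met the criteria. *Th* also stands on the list of other striatal interneuron genes. The arrays hold RNA of the striatum, whereas the study counted dopaminergic cell bodies in the substantia nigra. These values therefore do not measure the loss of dopaminergic neurons.

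The compartments of the striatum gave a median of −0.17 for 6 striosome genes and 0.15 for 6 matrix genes, and 0 of either list met the criteria. When the probes of each gene were averaged, the striosome median was −0.018. Striosomes hold spiny neurons rich in the µ-opioid receptor, and the matrix surrounds them. *Oprm1*, the µ-opioid receptor, had 0.18 at its brightest probe and 0.87 and −0.06 at others, and *Rasgrp1* had −0.21 and 0.40, so no direction is given for either. *Calb1*, the calcium-binding protein of matrix neurons, had 0.13, with 0.10 and 0.15 at its other probes, and *Epha4* had 0.16.

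Relatives of the receptors above and of *Isl1* formed a list of 14 genes, 12 of them detected, with *Chrm5* and *Isl2* at background on both arrays. Their median was 0.10, with 5 below and 7 above 0, and it was 0.0065 when probes were averaged by gene. *Chrm1*, the M1 muscarinic receptor, met the criteria for higher expression, with 461 ± 46.4 in WT and 732 ± 73.3 in Cx30 KO, giving a log2 ratio of 0.74, with 0.60 and 0.14 at its other probes. *Adora1*, the adenosine A1 receptor, had 0.14, with 0.22 and −1.22 at its other probes, and *Gpr12* had 0.21. Of 7 receptors for the peptides, *Oprk1*, the κ-opioid receptor at which dynorphin acts, met the criteria for higher genes. It had 912 ± 91.3 in WT and 1421 ± 142 in Cx30 KO, giving a log2 ratio of 0.71, and 0.68 at its other probe. *Tacr2*, a tachykinin receptor, had 0.09. Since 2.37% of all detected genes met the criteria for higher expression, the single calls of *Chrm1* and *Oprk1* do not set their lists apart. For 7 genes that process or store peptides the median was 0.20, with 5 above 0 and 0 that met the criteria, and the brightest were *Cpe*, carboxypeptidase E (−0.24), and *Pcsk1n* (0.14).

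**Figure D4:**
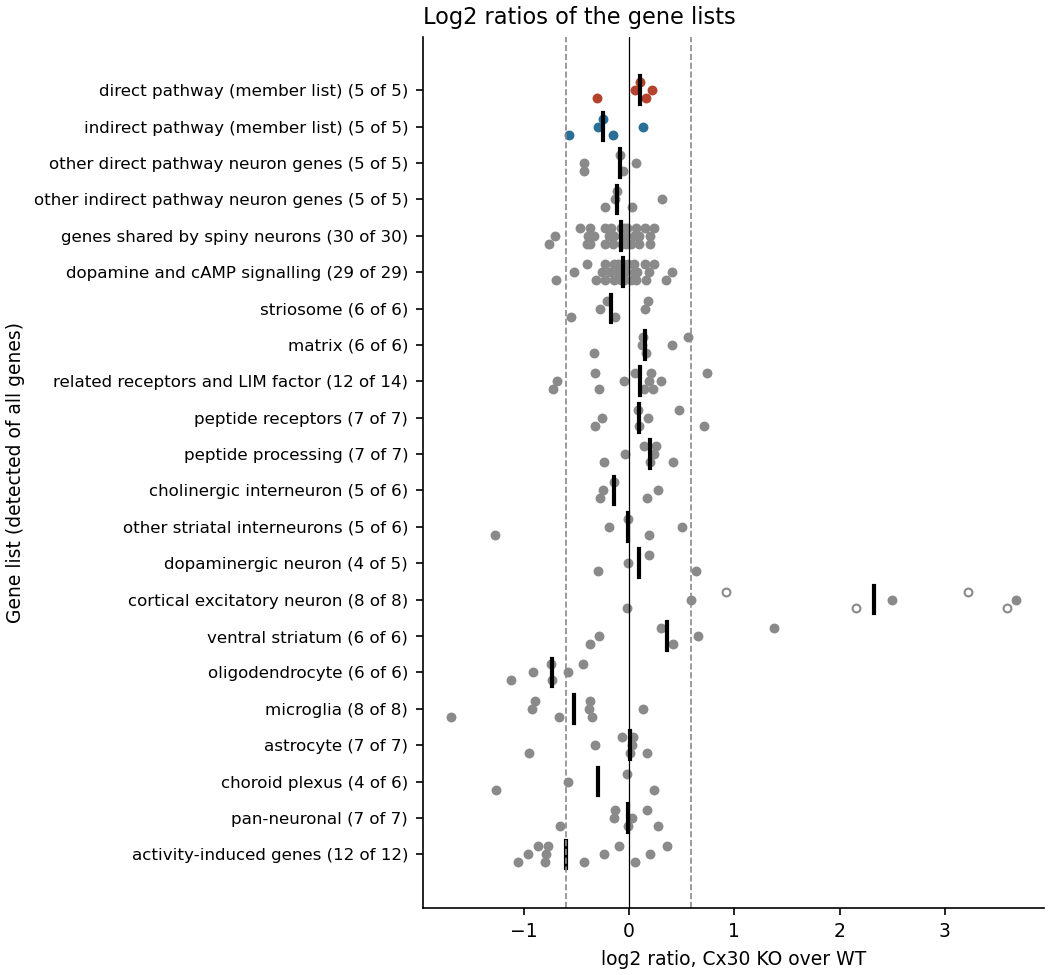
Log2 ratio of Cx30 KO over WT for each detected gene of each list, with the list median as a black bar, the ratio limits as dashed lines and genes well above background in Cx30 KO only as open points. Medians of the direct, indirect and shared spiny neuron lists lie between −0.25 and 0.11. *Rxrg* (−0.76) and *Cnr1* (−0.71) of the shared list lie beyond the lower limit. Cortical neuron genes lie far to the right (median 2.33) and oligodendrocyte genes lie to the left of 0 (median −0.73).

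Markers of other cells differed between the arrays and stand beside every value above. *Drd1*, *Penk*, *Tac1* and *Pdyn* are also known from cortical neurons. Of 8 cortical excitatory neuron genes, 5 met the criteria for higher genes in Cx30 KO (*Slc17a7*, *Tbr1*, *Neurod2*, *Neurod6* and *Fezf2*), and 4 of the 8 were not well above background on the WT array. Their summed signal was 418 in WT and 1723 in Cx30 KO, and *Cux2* had the highest mean log2 signal of both arrays (193 in WT and 277 in Cx30 KO), while *Neurod2* was the brightest in Cx30 KO (49.0 and 594). Their median was 2.33. It was 1.77 where genes detected on a single array were set at their bound, and 0.74 with normexp background correction. Of 6 oligodendrocyte genes, 4 met the criteria for lower genes (*Mbp*, *Mog*, *Mag* and *Cldn11*), with a median of −0.73 and summed signals of 71411 (WT) and 41868 (Cx30 KO), the brightest probes being those of *Mbp* and then *Mobp* (−0.44). *Mbp* and *Mag* each also had a probe above 0 (0.12 and 0.24), and with probes averaged by gene the median was −0.53. Of 8 microglia genes, 4 met the criteria for lower genes (*Aif1*, *Cx3cr1*, *P2ry12* and *Tmem119*). The median was −0.53, with 7 below and 1 above 0. The summed signals were 92384 (WT) and 84734 (Cx30 KO). Of these, *Itgam* (0.13), the brightest, alone gave 60045 and 62438, so the sum mainly follows this gene. *Csf1r* was the next brightest (−0.35, and 0.10 at its other probe). Of 7 pan-neuronal genes, *Nefl*, a neurofilament, met the criteria for lower genes (−0.66, and −0.85 at its other probe), while the bright *Snap25* and *Eno2* had 0.17 and −0.01 and the median was −0.01. The part of these cells in the values of the 10 genes was not tested, and with 1 pool for each genotype, differences of dissection, of genotype and between mice cannot be told apart.

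The choice of processing changed single values but not the count of 0 of the 10 genes that met the criteria. Scaling and background correction kept the order of the medians, with the direct pathway list at 0.06 to 0.14 and the indirect one at −0.30 to −0.16 over all alternatives.

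**Figure D5:**
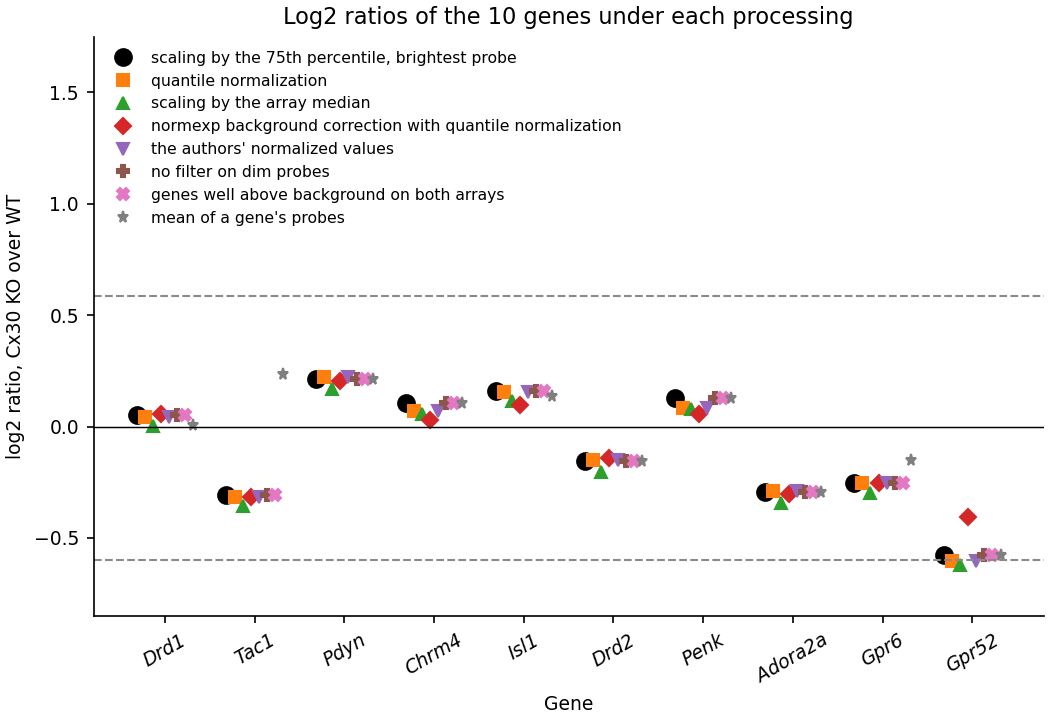
Log2 ratio of the 10 genes under the scaling used here (black circles) and 7 alternatives, with the ratio limits of 1.5 and 0.66 as dashed lines. The values of a gene lie close together, with *Tac1* and *Gpr6* under the mean of their probes (0.24, which includes probes not detected in WT, and −0.15) and *Gpr52* under normexp correction (−0.41) standing apart.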

How the data were processed

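Pooled striatal RNA of 2 WT and 2 Cx30 KO mice was hybridised to 2 Agilent arrays of 1 slide, in a single colour. The authors deposited scanner output, whose processed signals are linear intensity values, background-subtracted and detrended by array, as per the file headers (Feature Extraction 10.7.1.1, whereas the submitters' processing notes name 9.5.1.1). A table of the authors' normalised intensity values was also deposited, and 99.991% of its values were within 1% of the quantile-normalised signals.

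Control spots and outlier spots were left out, and log2 signals were averaged by probe and scaled by each array's 75th percentile (401.2 in WT, 381.8 in Cx30 KO). A probe counted as detected if 50% or more of its spots were marked well above background (56.6% of 56605 probes on the WT array, 58.2% on the Cx30 KO array). The value of a gene is that of its brightest probe detected on at least 1 array. A gene seen on 1 array has only a bound, given as "at least". The bound sets its signal against the higher of the lowest detected signal and its own signal on the other array. Where its own signal is the higher, the bound is the measured ratio. Older symbols of 1897 probes were replaced from RefSeq (GRCm38.p6).

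The single array for each genotype allowed neither a test nor the omission of a replicate, and sets the limit on precision. The 10 genes and all lists were chosen with earlier results of these data known. Named are the 10 genes, *Gjb6*, and from each context list the genes that met the criteria, the 2 brightest and those at background on both arrays. *Ebf1*, *Slc35d3*, *Lingo2*, *Sp9*, *Grik3* and *Plxdc1* are named in addition, as members of their lists. Likeness of pattern was not computed, since 2 arrays give 1 difference for each gene. Of the cortical neuron and oligodendrocyte lists, 1 gene each is not reported here and is left out of their counts, sums and medians. The calculation was tested on simulated data. Alternatives were quantile normalisation, scaling by the array median, normexp with an offset of 50 (limma 3.58.1 in R 4.3.3), the authors' values, other filters on dim probes, the mean of a gene's probes, single probes, a Z-score over all probes, and ratio limits of 2 and 0.5. Other calculations used Python 3.11.15, numpy 2.4.6 and pandas 2.3.3.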

Additional observations from a re-analysis of the deposited data

How the results depend on the processing

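Over all alternatives 0 of the 10 genes met the criteria in either direction. The median of the direct pathway genes moved by less than the single-spot SD of 0.07 in each of 7 alternatives. When a gene's probes were averaged, the indirect pathway median was −0.16, *Tac1* was 0.24 and *Gpr6* was −0.15. At other single probes *Drd1* had −0.033, *Gpr6* had −0.047, and *Tac1* measured 0.64 and 0.96 at the dim probes, which were not detected in WT and have only bounds. With normexp correction *Chrm4* had 0.029, *Penk* 0.055 and *Gpr52* −0.41. All other values of the 10 genes moved by less than that SD. *Tac1* was below 0 at both bright probes and under every scaling. Over all detected genes, a Z-score over all probes gave 455 lower genes, ratio limits of 2 and 0.5 gave 428 lower and 340 higher genes, and genes detected on both arrays gave 328 higher genes. Without a filter on dim probes the median of all genes was −0.07, a shift of −0.10, with no change in the 10 genes. The medians of the astrocyte genes and the other striatal interneuron genes each turned sign in 3 settings and that of the pan-neuronal genes in 1. No paired analysis was possible because each genotype has 1 array. The low signals of *Chrm4* and of the dim *Tac1* probes limit what could be seen for them.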

Other observations

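Other neurons of the region differed between the pools in single genes. Of 6 genes of other striatal interneurons, 5 were detected, with *Calb2* at background on both arrays. *Pvalb*, the calcium-binding protein of fast-spiking interneurons, met the criteria for lower genes, with 4533 ± 453 in WT and 1787 ± 179 in Cx30 KO on its single detected probe and a log2 ratio of −1.27. *Sst*, somatostatin, and *Npy*, neuropeptide Y, had 0.19 and 0.50 and did not meet the criteria. Among 6 genes enriched in the ventral and medial striatum, *Crym*, which encodes µ-crystallin, and *Dlk1*, a Notch-related ligand, met the criteria for higher genes. *Crym* had 13786 ± 1379 in WT and 20701 ± 2070 in Cx30 KO, giving a log2 ratio of 0.66. *Dlk1* had 316 ± 31.9 and 781 ± 78.2, a log2 ratio of 1.38, with 1.504 at its other probe, and *Nts*, neurotensin, had −0.37. Of these 6 genes, 2 were below and 4 above 0, and their median was 0.36, or 0.19 with normexp correction.

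Of 12 activity-induced genes, 9 were below 0 and 6 met the criteria for lower genes, with a median log2 ratio of −0.60. They were *Egr2* (−1.06), *Nr4a1* (−0.96), *Npas4* (−0.86), *Egr4* (−0.80), *Egr1* (−0.79) and *Arc* (−0.77). Of 7 astrocyte genes, *Aqp4*, the water channel of astrocyte endfeet, met the criteria for lower genes (−0.95), but its other detected probes ran from −4.24 to 0.02, and the bright *Aldoc* and *Slc1a2* had −0.07 and 0.17. Of 6 choroid plexus genes, 4 were detected, with *Kcnj13* and *F5* at background on both arrays. *Ttr*, transthyretin, met the criteria for lower genes, with 304 in WT and 120 in Cx30 KO, giving a log2 ratio of −1.27, and *Clic6* had −0.02.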
